A study of Mus musculus with 8 samples.

Results

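The timing domain of Dppa2, Dppa4 and Morc1 is a stretch of mouse chromosome 16 that replicates early in embryonic stem cells, and it is described here in control cells and in cells treated with dTAG to deplete YY1. Its members were chosen by position, from the score at the midpoints of the 3 genes and all 5 kb positions from 47 to 50.5 Mb (mm10), which gave 701 of the 514245 positions with a score in every profile and 3 of 21524 genes. Repli-seq was carried out on mouse embryonic stem cells: DNA made during a BrdU pulse of 2 h was recovered from 40000 cells sorted into early or late S phase and sequenced. The 8 samples, an early and a late fraction each, stand behind 4 timing profiles: control 1 and control 2, and dTAG 1 and dTAG 2, collected 2 days after dTAG treatment. dTAG is a small molecule that drives the breakdown of a protein carrying a matching tag, here YY1. For culture and treatment the submitters point to a published protocol, and the line, the tagged allele and what the controls received are not stated. The labels also do not say that replicates were separate cultures, so every p-value measures only the spread between these profiles.

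Replication timing is the order in which stretches of a chromosome are copied during S phase, and neighbouring replicons fire together in domains that can change timing between cell types. DPPA2 and DPPA4 are partner proteins with a SAP domain that bind chromatin in pluripotent and early embryonic cells, and MORC1 is an ATPase that silences retrotransposons in the male germ line. The Dppa2 domain is known for early replication in embryonic stem cells and late replication after differentiation, and it is the domain in which early replication control elements were mapped by deletion. YY1 is a zinc finger protein found at active promoters and enhancers, where it helps to hold both in contact.

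Each position carries a signed timing score, smoothed and quantile normalized by the authors, whose formula and direction are not stated in the sources used here, and a high score is read as early. Replicate numbers differed in scale: the genome-wide median was 0.24 in the profiles numbered 1 and -0.24 in those numbered 2, because the sorted scores of one number were the mirror image of those of the other. Differences are therefore given as dTAG minus control over all profiles and also within each replicate number, and non-overlap between groups was checked again with all 4 profiles put on one distribution. For dTAG 1 the title letters name the opposite S-phase fraction from the one recorded for each sample, and its scores at the 3 genes lay on the same side of 0 as those of the other 3 profiles. All 9 stem cell marker genes, from Pou5f1 to Dppa5a, scored above 0 in every profile, which places them on the timing scale and says nothing of their expression. Read depth is unknown, and these files hold no measure of the YY1 level.

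Of the 15 protein-coding genes with a midpoint in the region, 10 matched an entry in the RefSeq promoter table (GRCm38.p6), with 12 promoter windows. Dppa2, Dppa4 and Morc1 were not among them. The 4 promoters below are shown because their genes mark the places where the dTAG and control profiles lay apart or together: Trat1 in the distal part of the early interval, Cip2a at its distal end, and Ift57 and Cd47 in the later-replicating flank. Trat1 is read from the minus strand at chr16:48772033-48772312, and the others from the plus strand, Cip2a at chr16:48993938-48994217, Ift57 at chr16:49699044-49699323 and Cd47 at chr16:49855404-49855683. Each runs from 250 bases before a listed start of transcription to 30 bases after it. The whole windows of Trat1 and Cd47 lie inside the spans of those genes, chr16:48730774-48810547 and chr16:49851328-49912503. Capitals mark CCAT, the shortest core bound by YY1, or ATGG, the same letters on the other strand.
Trat1: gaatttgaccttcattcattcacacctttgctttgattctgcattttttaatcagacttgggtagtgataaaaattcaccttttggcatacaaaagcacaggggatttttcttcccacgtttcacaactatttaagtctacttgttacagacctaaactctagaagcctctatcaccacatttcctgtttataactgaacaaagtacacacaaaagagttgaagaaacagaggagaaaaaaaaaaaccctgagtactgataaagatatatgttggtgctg
Cip2a: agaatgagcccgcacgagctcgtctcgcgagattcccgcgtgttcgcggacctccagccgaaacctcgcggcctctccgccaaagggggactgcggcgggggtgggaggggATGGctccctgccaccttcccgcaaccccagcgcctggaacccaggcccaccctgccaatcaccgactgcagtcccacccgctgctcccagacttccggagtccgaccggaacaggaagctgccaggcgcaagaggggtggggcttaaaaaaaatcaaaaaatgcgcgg
Ift57: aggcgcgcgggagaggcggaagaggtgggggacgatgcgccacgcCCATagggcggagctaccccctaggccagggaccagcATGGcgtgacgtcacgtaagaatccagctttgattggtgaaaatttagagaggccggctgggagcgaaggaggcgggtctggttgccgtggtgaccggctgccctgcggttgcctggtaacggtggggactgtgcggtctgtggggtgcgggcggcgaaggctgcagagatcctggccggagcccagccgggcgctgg
Cd47: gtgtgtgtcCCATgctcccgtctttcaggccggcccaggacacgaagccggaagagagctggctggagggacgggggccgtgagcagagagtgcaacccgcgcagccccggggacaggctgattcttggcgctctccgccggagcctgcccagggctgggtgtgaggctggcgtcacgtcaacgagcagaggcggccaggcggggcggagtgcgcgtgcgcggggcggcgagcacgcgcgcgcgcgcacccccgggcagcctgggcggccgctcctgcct
The promoters of Cip2a, Ift57 and Cd47 were rich in CG, with 27, 25 and 35 CG dinucleotides in the 300 bases of the table, against a median of 7 over all 32851 promoters of 27025 genes. That of Trat1 held 1. The background takes every listed promoter, with no restriction to protein-coding genes, while the windows of the region are from protein-coding genes only. CCAT on either strand occurred in 83.1% of all promoters, with a median count of 2. The longer motif AAGATGGC, a core of the YY1 consensus, was in 0 of the 12 windows on either strand, against 2.75% of all promoters, and the octamer ATGCAAAT was in 0 of the 12, against 1.74%. The motifs do not overlap one another in the printed letters, and a match or its absence describes these windows only.

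In all 4 profiles the 3 genes lay on an early plateau, with scores between 2.64 and 3.17. Dppa4 (gene ID 73693, chr16:48283735-48294292) scored 3.05 in control 1, 2.91 in control 2, 2.69 in dTAG 1 and 2.70 in dTAG 2. Dppa2 (gene ID 73703, chr16:48310274-48319513), next to it, scored 3.17 in control 1, 3.09 in control 2, 2.82 in dTAG 1 and 2.86 in dTAG 2. At both genes the 2 dTAG profiles lay below the 2 controls. Morc1 (gene ID 17450, chr16:48431237-48630905) scored 2.77 in control 1, 2.72 in control 2, 2.88 in dTAG 1 and 2.64 in dTAG 2, so its groups overlapped, with dTAG 1 the highest and dTAG 2 the lowest. Dppa4 and Dppa2 are neighbours that share much of their smoothed signal, so these genes are not separate measurements.

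No difference at the 3 genes passed the test. The mean score of Dppa4 was 2.98 ± 0.10 (SD, n = 2) in controls and 2.69 ± 0.0049 in dTAG profiles. The difference was -0.29 (SE 0.31, adjusted p = 0.9999 by limma over all genes), or -0.36 within replicate number 1 and -0.22 within number 2. That of Dppa2 was 3.13 ± 0.058 (SD, n = 2) in controls and 2.84 ± 0.030 in dTAG profiles. Its difference was -0.28 (SE 0.31, limma adjusted p = 0.9999), or -0.35 within number 1 and -0.22 within number 2. For Morc1 the means were 2.75 ± 0.034 and 2.76 ± 0.17 (SD, n = 2), with a difference of 0.011 (SE 0.32, limma adjusted p = 0.9999), and of 0.11 and -0.084 within the numbers, which have opposite signs. On one distribution Dppa4 and Dppa2 remained lower in both dTAG profiles than in both controls, by -0.31 and -0.30, and Morc1 remained overlapping. Of all genes, 8.42% had both dTAG profiles below both controls and 10% had both above. A difference at least as large in size as that of Dppa2 was found at 30.6% of genes, as that of Dppa4 at 29.7% and as that of Morc1 at 96.3%.

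**Figure D1:**
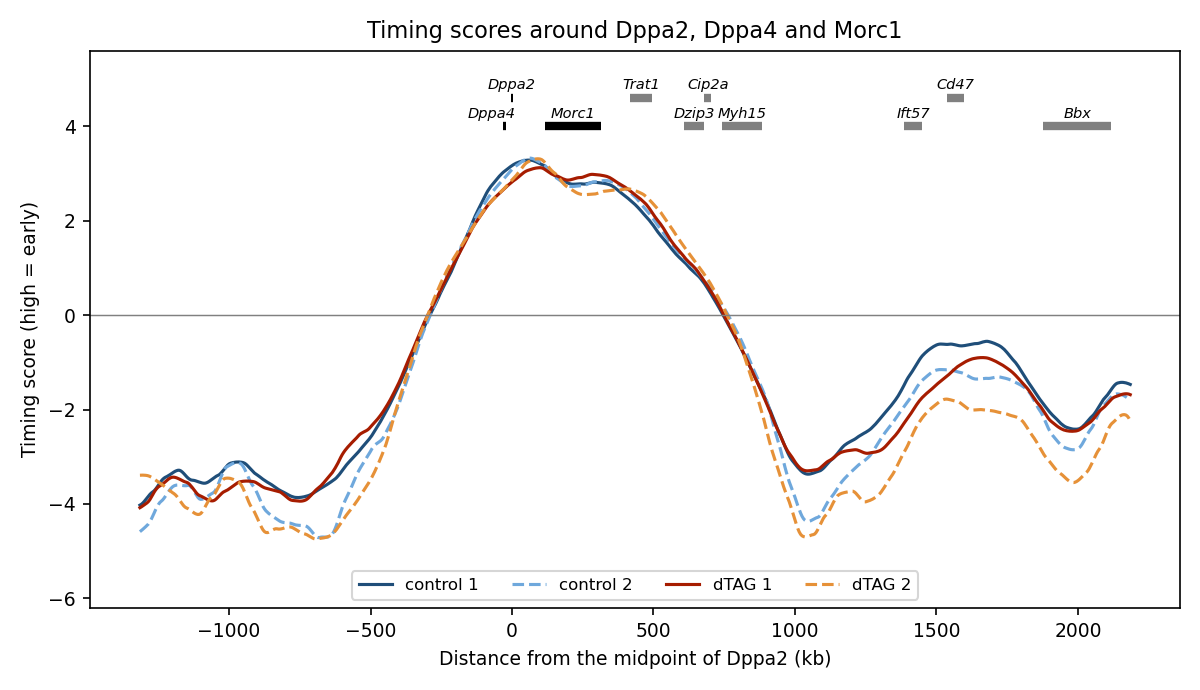
Timing score of each profile, on the vertical axis in score units, against the distance from the midpoint of Dppa2 in kb over the region from 47 to 50.5 Mb. All 4 profiles are above 0 for about 1040 kb around the 3 genes and fall below -3 on both sides of it.

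The ranks of the 3 genes among all scored positions were alike. The score of Dppa2 stood at the 76.5th percentile of control 1, the 79.1st of control 2, the 71.9th of dTAG 1 and the 76.3rd of dTAG 2. Dppa4 stood at 75.0, 76.9, 70.4 and 74.5 in the same order, and Morc1 at 71.3, 74.8, 72.7 and 73.9. By rank, dTAG 2 therefore lay close to control 1 at Dppa2 and Dppa4, and the lower place of both dTAG profiles holds most clearly within each replicate number. Along Morc1, which spans 199669 bases and 40 positions, scores at the end far from Dppa2 were lower than at the near end. They went from 3.14 to 2.80 in control 1, from 3.15 to 2.84 in control 2, from 3.07 to 2.96 in dTAG 1 and from 3.21 to 2.61 in dTAG 2. The gap between the ends was smallest in dTAG 1 and widest in dTAG 2, with both controls between them.

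The early interval that holds the genes kept its outline in all 4 profiles. Averaged over profiles, scores were above 0 from 48025000 to 49065000, which is 209 positions and 1040 kb. Its mean score was 2.07 in control 1, 2.11 in control 2, 2.09 in dTAG 1 and 2.12 in dTAG 2. The groups overlapped, and the difference was 0.019 over all profiles and within number 1, and 0.018 within number 2 (exact permutation test over 4 profiles, 2-sided, p = 0.667). With 2 profiles against 2 this test cannot give a p below 0.333. Within the interval the controls also lay close to each other, at a median distance of 0.075 per position against 0.537 over the genome. That closeness belongs to the deposited scale: on one distribution control 1 and control 2 scored 3.02 and 3.21 at Dppa2, and 1.97 and 2.56 at Trat1. Among 830 early intervals found the same way across the genome, the median width was 885 kb and 57.6% were narrower than this one. Of the 398 that had between 0.5 and 2 times its width, the median highest score was 3.44, and 40.2% had a lower maximum than the 3.25 reached here.

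The proximal edge, where the score crosses 0 on the side of Dppa4, lay at -290.4 kb from the midpoint of Dppa2 in control 1, -288.9 kb in control 2, -297.6 kb in dTAG 1 and -298.0 kb in dTAG 2, where negative means away from Morc1. Both dTAG profiles thus had the edge slightly farther out, with a shift of -7.18 kb within number 1 and -9.07 kb within number 2 (exact permutation p = 0.333, the smallest possible). The distal edge, beyond Cip2a, lay at 746 kb in control 1, 764 kb in control 2, 749 kb in dTAG 1 and 760 kb in dTAG 2. There the groups overlapped, and the shift was 2.99 kb within number 1 and -3.72 kb within number 2 (exact permutation p = 1). The width was 1037 kb, 1053 kb, 1047 kb and 1058 kb in the same order, also overlapping, with a difference of 7.77 kb (exact permutation p = 0.667). Edges were interpolated between positions 5 kb apart, so the proximal shifts span under 2 positions and the distal shifts under 1.

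Edges crossed at 0 depend on the scale of the profiles. On one distribution the 4 proximal edges spread over 42.9 kb and the distal edges over 60.6 kb, against 9.07 and 17.8 kb on the deposited scale, and at both ends the edges of number 1 then lay inside those of number 2. The proximal shift was then -6.44 kb within number 1 and -8.02 kb within number 2. Over 709 edges that could be followed in all profiles within 300 kb, the median size of the shift was 18.7 kb and the median spread 59.9 kb. A shift under 10 kb was found at 27.6% of them. On the deposited scale 0.846% of edges had a spread as small as the proximal edge and 5.22% as small as the distal edge; these shares were not computed on one distribution.

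**Figure D2:**
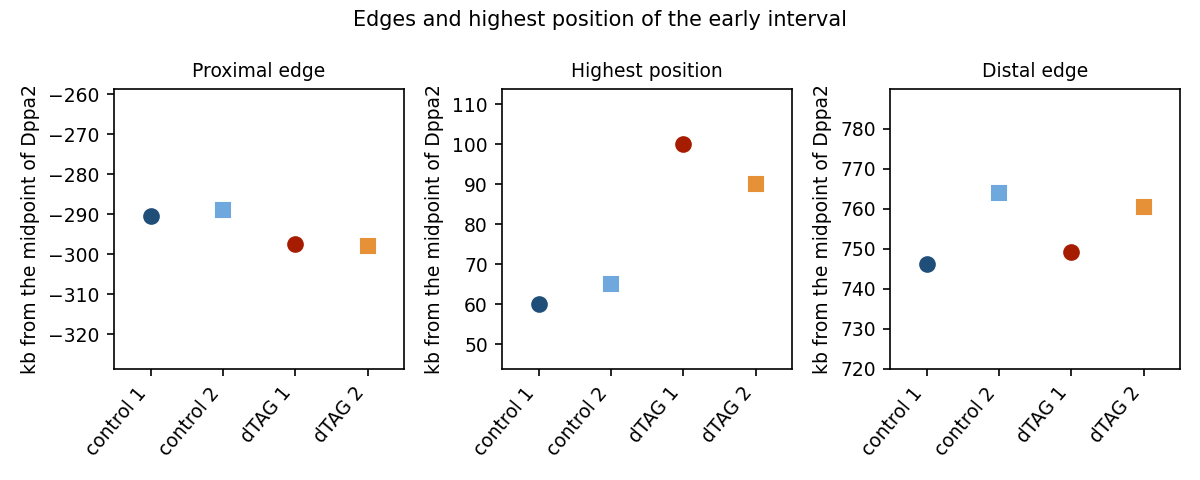
Position of the proximal edge, the highest score and the distal edge in each profile, in kb from the midpoint of Dppa2, with positive values toward Morc1 and each panel spanning 70 kb. The highest point lies 60 and 65 kb from Dppa2 in the controls and 100 and 90 kb in the dTAG profiles, while the edges differ by less than 20 kb.

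The highest point of the interval lay between Dppa2 and Morc1 in every profile. It was at 48375000 in control 1, 48380000 in control 2, 48415000 in dTAG 1 and 48405000 in dTAG 2, which is 60, 65, 100 and 90 kb from the midpoint of Dppa2. The dTAG maxima were 32.5 kb nearer to Morc1 on average, by 40 kb within number 1 and 25 kb within number 2 (exact permutation p = 0.333, the smallest possible). This position does not depend on the scale, because ranks within a profile fix it. The height of the maximum was 3.28, 3.33, 3.12 and 3.31 in the same order, overlapping between groups (difference -0.087, exact permutation p = 0.667). The top was nearly flat: at 65 kb dTAG 1 scored 3.08 against its maximum of 3.12, and dTAG 2 scored 3.27 against 3.31. The shift of the highest point was not set beside that of other intervals.

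The interval tilted between its ends. In a run of 47 positions from 48150000 to 48380000, which holds Dppa4 and Dppa2, both dTAG profiles lay below both controls, by -0.21 on average, with -0.27 within number 1 and -0.15 within number 2. From 48720000 to 48985000, over 54 positions, both dTAG profiles lay above both controls, by 0.21, with 0.18 and 0.24 within the numbers. Runs were picked by this separation of the groups, so the same sign within both numbers follows from the choice. The second run holds Trat1, which encodes an adaptor of the T-cell receptor, the genes of the secreted resistin-like proteins Retnlb, Retnla and Retnlg, and Dzip3, which encodes a ubiquitin ligase. On one distribution 12 of the 47 lower positions and 0 of the 54 higher positions kept their groups apart, while the differences within each number kept their sign at the genes named here. Over the genome both dTAG profiles lay above both controls at 10.9% of positions and below at 8.66%, or 13.8% and 12.6% on one distribution.

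Trat1 scored 2.22 in control 1, 2.36 in control 2, 2.45 in dTAG 1 and 2.59 in dTAG 2. Its difference was 0.23 (SE 0.31, limma adjusted p = 0.9999), with 0.24 and 0.22 within the numbers. At Retnlb, Retnla and Retnlg the differences were 0.28, 0.29 and 0.25, and both numbers gave a positive difference at each, from 0.16 to 0.36. Dzip3 scored 0.90, 0.98, 1.01 and 1.15, a difference of 0.14. Cip2a, which encodes an inhibitor of the phosphatase PP2A and shares a start region with Dzip3, scored 0.58, 0.65, 0.63 and 0.77, and its groups overlapped. The predicted gene Gm52257, at the proximal edge, scored 0.44, 0.48, 0.49 and 0.63, with both dTAG profiles above both controls by 0.10 and no longer so on one distribution.

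The tilt can be read inside each profile, free of any difference in level between profiles. The score of Dppa2 exceeded that of Trat1 by 0.95 in control 1, 0.72 in control 2, 0.37 in dTAG 1 and 0.28 in dTAG 2. On one distribution the gaps were 1.05, 0.65, 0.41 and 0.25, so the dTAG profiles stayed below the controls on both scales. This pair was chosen after the values were seen, and the gap is given with no test. Dppa2 was taken from the lower run and Trat1 from the higher one. A smaller gap in both dTAG profiles therefore follows from the choice on the deposited scale and is not separate support for the tilt. By contrast the gap between Dppa2 and its neighbour Dppa4 was 0.11, 0.17, 0.13 and 0.17, with overlapping groups.

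**Figure D3:**
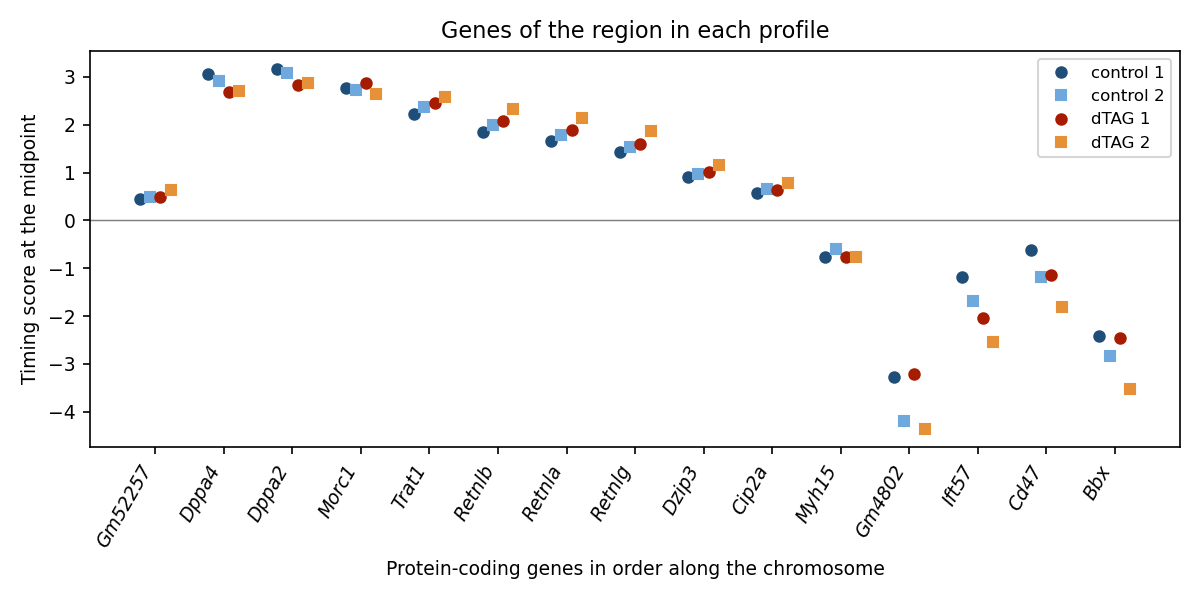
Timing score at the midpoint of each of the 15 protein-coding genes of the region, in order along the chromosome, with 1 point for each of the 4 profiles. Both dTAG points lie below both control points at Dppa4, Dppa2 and Ift57 and above them at Gm52257 and from Trat1 to Dzip3.

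The flanks were late in every profile, and the largest mean differences of the region lay in the distal one. The proximal flank, from 47000000 to 48020000, had mean scores of -3.04 in control 1, -3.48 in control 2, -3.09 in dTAG 1 and -3.61 in dTAG 2, a difference of -0.095 with -0.053 and -0.14 within the numbers (exact permutation p = 0.667). No protein-coding gene has its midpoint there. The distal flank, from 49070000 to the end of the region, had means of -1.72, -2.16, -1.99 and -2.78 in the same order. Both numbers gave lower dTAG scores, by -0.27 in number 1 and -0.62 in number 2, for a difference of -0.44 (exact permutation p = 0.667). The replicate numbers stood apart over the whole genome, where number 2 minus number 1 was -0.40 for controls and for dTAG profiles. In the proximal flank it was -0.44 for controls and -0.52 for dTAG profiles. It was -0.44 and -0.79 in the distal flank, and 0.033 and 0.032 in the early interval.

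A run of 57 positions from 49590000 to 49870000 had both dTAG profiles below both controls, with a mean of -1.54 in controls and -2.37 in dTAG profiles. The difference was -0.83, with -0.77 within number 1 and -0.89 within number 2, and all 57 positions kept the groups apart on one distribution. The shared sign within the numbers again follows from how runs were picked. The lowest mean difference of the region, -0.93, was at 49635000, 1320 kb from the midpoint of Dppa2. Ift57 (gene ID 73916, chr16:49699294-49765126), a component of the intraflagellar transport machinery of cilia, lies in this run. It scored -1.19 in control 1, -1.68 in control 2, -2.04 in dTAG 1 and -2.54 in dTAG 2, so both dTAG profiles were later than both controls. Its difference was -0.85 (SE 0.38, limma unadjusted p = 0.074, adjusted p = 0.9999), and -0.85 within each number. With the replicate number as a block the limma p of Ift57 was 0.0055 unadjusted and 0.572 adjusted. In that fit 1654 of 21524 genes had an unadjusted p under 0.05, and 0.572 was the smallest adjusted p of any gene. With trended and robust variance as well, the limma adjusted p of Ift57 was 0.070, in a fit that called 562 genes. Of all genes, 2.11% had a difference at least as large in size.

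Cd47 (gene ID 16423, chr16:49851328-49912503), whose product is a surface signal that protects cells from phagocytosis, scored -0.63 in control 1, -1.18 in control 2, -1.14 in dTAG 1 and -1.82 in dTAG 2. The groups overlapped by the small gap between control 2 and dTAG 1, and on one distribution both dTAG profiles lay below both controls. Its difference was -0.58 (SE 0.41, limma adjusted p = 0.9999), with -0.51 and -0.64 within the numbers, and 7.11% of genes had a difference at least as large in size. The difference at Cd47 was -0.24 without dTAG 2, -0.30 without control 1 and -0.91 without dTAG 1. Bbx, an HMG-box gene farther out, scored -2.42, -2.84, -2.45 and -3.53, with a difference of -0.36 that was -0.035 in number 1 and -0.68 in number 2, and it was 0.18 without dTAG 2, -0.15 without control 1, -0.57 without control 2 and -0.90 without dTAG 1. Myh15, a myosin heavy chain gene that spans the distal edge, scored -0.77, -0.60, -0.76 and -0.76 at its midpoint, which lies beyond that edge. The predicted gene Gm4802 scored -3.27, -4.19, -3.21 and -4.37. Both had overlapping groups and differences of -0.072 and -0.056.

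**Figure D4:**
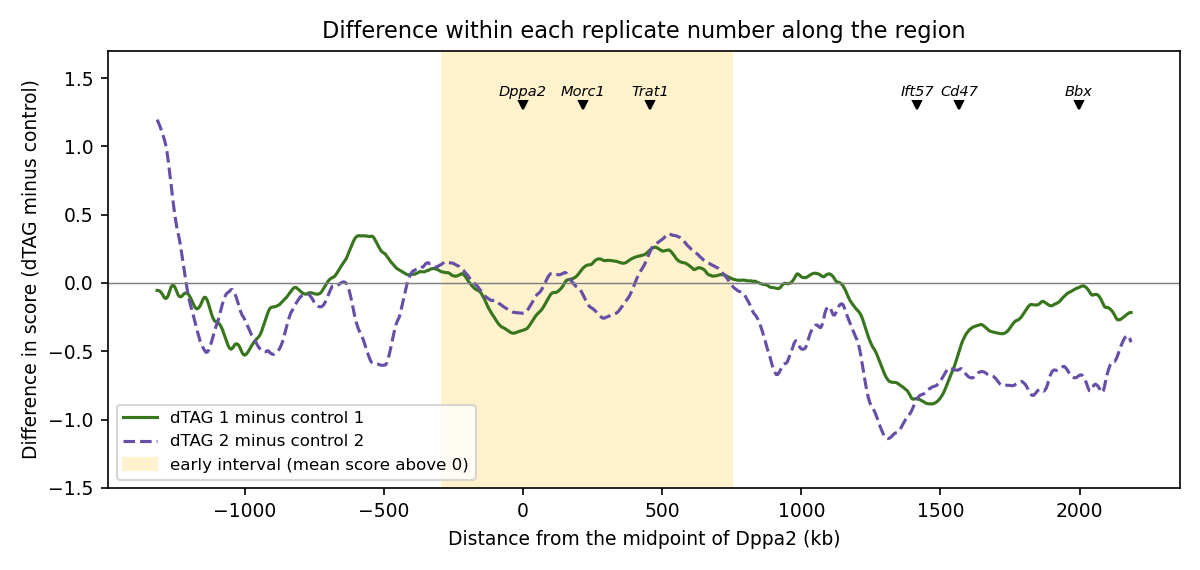
Difference in score, dTAG minus control, within replicate number 1 and within number 2, against the distance from the midpoint of Dppa2 in kb. Both lines are below 0 around Dppa2, above 0 from 405 to 670 kb and lowest in the distal flank between 1275 and 1555 kb, and number 2 alone reaches 1.20 at the start of the region.

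Counted over the whole region, 76 of 701 positions (10.8%) had both dTAG profiles above both controls, near the 10.9% of the genome, and 164 (23.4%) had both below, against 8.66%. Neighbouring positions share smoothed reads, so these counts come from 8 runs rather than from independent sites. The lower positions fell on all parts. They made up 32 positions of the proximal flank (15.6%), 47 of the early interval (22.5%) and 85 of the distal flank (29.6%). Of the higher positions, 66 lay in the early interval (31.6% of it), 10 in the proximal flank (4.88%) and 0 in the distal flank. On one distribution 0 of the 701 positions were higher and 266 of the 701 lower, where the genome had 13.8% and 12.6%. With a gap of at least 0.25 between the groups, 0 of the 701 positions were higher and 53 of the 701 lower, where the genome had 2.45% and 2.98%. With a gap of at least 0.5 the region had 0 of either, against 0.548% and 1.1%.

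Tested across the genome with limma, 0 of 51425 windows of 50 kb passed an adjusted p of 0.05 (0% called), and 500 had an unadjusted p under 0.05, of which 0 were among the 70 windows of the region. The gene test likewise called 0 of 21524 genes (0%), with 171 at an unadjusted p under 0.05. With the replicate number as a block, 11 of the 70 windows (15.7%) had an unadjusted p under 0.05, all with the dTAG profiles later, against 12.1% of all windows, and the smallest adjusted p in the region was 0.249. The median difference over the windows of the region was -0.17, against 0.014 over the genome, and the median SE was 0.38 against 0.42. With an SE of this size, differences such as those at Dppa2 and Dppa4 could not be detected by the fit with group alone. With the replicate block the median SE over the windows of the region was 0.19.

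The 3 genes were set beside other stem cell loci. Zfp42, a pluripotency marker on chromosome 8 that lies in an early domain of its own, scored 3.37 in control 1, 3.08 in control 2, 3.41 in dTAG 1 and 3.09 in dTAG 2, with differences of 0.034 and 0.0027 within the numbers. Its neighbours Triml1 and Triml2, of the tripartite motif family, had differences of -0.020 and -0.039, and Fat1, a giant cadherin gene farther along, had one of -0.048. Relative to Zfp42, the mean of the 3 members was lower with dTAG by -0.23 in number 1 and -0.18 in number 2, or -0.21 over all profiles (exact permutation p = 0.667). Without dTAG 1 the value was -0.077, without control 2 -0.11 and without dTAG 2 -0.33. Nanog, the homeobox regulator of pluripotency, scored 3.42, 3.04, 3.76 and 2.56, so its 2 dTAG profiles stood on either side of the controls. The members relative to Nanog differed by -0.55 and 0.31 within the numbers (exact permutation p = 1). Dppa3, a maternal-effect gene near Nanog, had differences of 0.062 and -0.46. Klf6, a zinc finger gene already known to differ in these data and given as a description, scored 0.17, -0.69, 1.45 and 0.96.

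**Figure D5:**
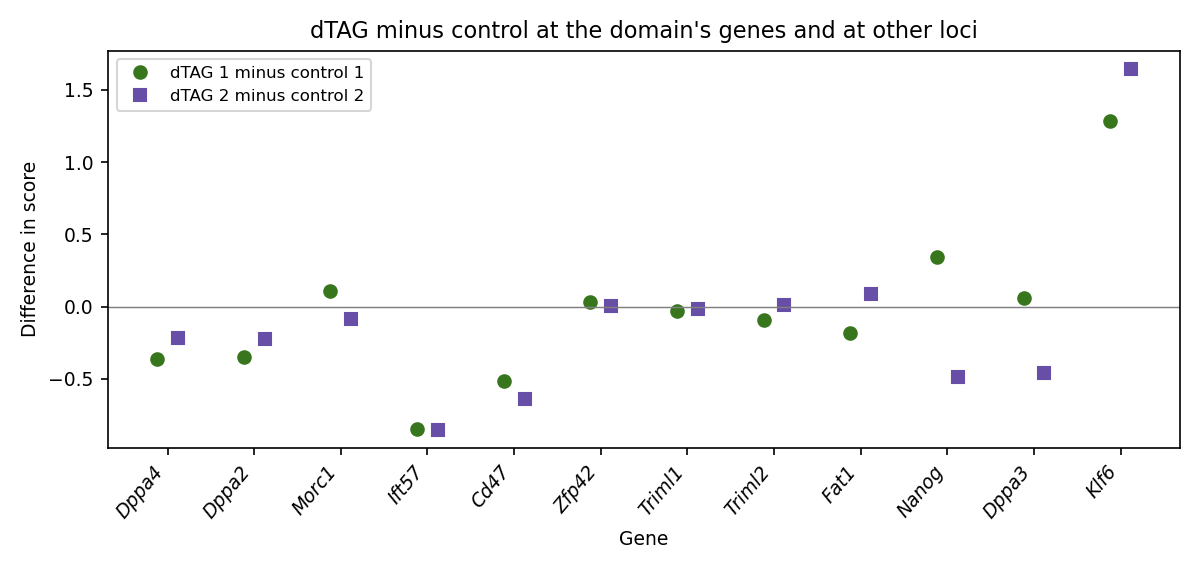
Difference in score, dTAG minus control, at the genes of the domain and at the other loci, with a point for each replicate number. Dppa4, Dppa2, Ift57 and Cd47 are below 0 in both numbers, Morc1 and Nanog have 1 point on each side of 0, and Klf6 is above 1 in both.

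Gene groups linked to the members were counted in the same gene test, which called 0 genes in each, with 0 at an unadjusted p under 0.05. All 22 genes of core and naive pluripotency scored above 0 in every profile. Their median difference was 0.0090, with 0.075 within number 1 and -0.24 within number 2, beside -0.018, 0.013 and -0.075 over all genes. Their lowest difference was -0.55 at Nr0b1, an orphan nuclear receptor gene, and their highest 0.29 at Fgf4, a growth factor gene whose 2 numbers gave 0.84 and -0.26. Both dTAG profiles lay below both controls at 2 of the 22 and above at 0, beside 8.42% and 10% of all genes. The other 7 Dppa and MORC genes scored above 0 in every profile, with a median difference of -0.026, from -0.33 at Morc4 to 0.18 at Dppa1, and all had overlapping groups.

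Genes of the 2-cell-like state, many of them activated by DPPA2 and DPPA4, lay later on the scale, and 4 of 14 scored above 0 in every profile. Their median difference was 0.30, with 0.25 and 0.22 within the numbers, against -0.018 over all genes. Both dTAG profiles lay above both controls at 5 of 14 and below at 0, beside 10% and 8.42% of all genes. The list holds families of near-identical copies that lie side by side, such as Zscan4 and Usp17l, where reads can be shared and smoothed scores are common to several members. The highest difference was 0.86 at Zscan4e, which scored -0.74, -1.05, 0.47 and -0.55, and the lowest was -0.34 at Usp17la. None of the 14 was called by limma with group alone, and Zscan4e was called with trended and robust variance and the replicate block (adjusted p = 0.042).

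Genes whose level was most like that of Dppa2 and Dppa4 were sought on the other chromosomes, by the root mean square difference over the 4 profiles from the mean of the 2 genes. The nearest of 20844 genes were Arxes1 at 0.036, Arxes2 at 0.044 and Bex2 at 0.047, which lie together on chromosome X, and Defb47 at 0.071 and Defb48 at 0.072, which are neighbours on chromosome 14. Arxes1 scored 3.10, 2.96, 2.74 and 2.83 in control 1, control 2, dTAG 1 and dTAG 2. All 5 also had both dTAG profiles below both controls, a pattern that the measure of likeness favours. Within 0.25 of the pattern there were 586 genes, or 2.81%, so levels like these were shared by many loci.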

How the data were processed

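Repli-seq of 8 mouse embryonic stem cell samples gave 4 profiles, 2 control and 2 dTAG. The submitters' processing notes name Bowtie2, SAMtools, bedtools and mm10, with no versions in the sources used here. The deposited score per 5 kb position was Loess smoothed and quantile normalized by the authors, per the file's name. Smoothing makes neighbouring positions share reads, and its effect on edges was not tested. Gene positions came from a RefSeq gene table (GRCm38.p6) without strand, which only the promoter table gives, so genes took the score at their midpoint.

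Scores were averaged over 50 kb windows of the 19 autosomes and X (a window needed at least 0.5 of its positions scored) and fitted with limma 3.58.1 in R 4.3.3 (a group term alone, 2-sided, Benjamini-Hochberg over all windows or genes, threshold 0.05). The fit was tested on simulated data. Single values used exact permutation over profiles. One distribution means that each profile took the average of the sorted profiles by rank. The members, gene lists, motifs and alternatives were chosen with earlier results of these data known. Named genes are the members, all protein-coding genes of the region, fixed comparison loci, the extremes of each list and the 5 nearest in level. Nectin3 and Cd96, beyond the region, were added outside this plan. The replicate numbers were taken as a block only in an alternative, since the labels do not say what a number shares.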

Additional observations from a re-analysis of the deposited data

How the results depend on the processing

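The differences at Dppa2 and Dppa4 kept their sign in all 11 alternatives, and no alternative called them or a window of the region. With a replicate block the difference at Dppa2 was -0.28 (limma adjusted p = 0.754), at Dppa4 -0.29 (0.749) and at Morc1 0.011 (0.995); the block changed no call. Trended and robust variance with the block gave limma adjusted p = 0.360, 0.325 and 0.997, and called 562 genes and 1462 windows against 0. It called 1 gene of the 2-cell-like list, Zscan4e (adjusted p = 0.042). The unadjusted limma p in that fit was 0.043, 0.035 and 0.93 in the same order, where 2774 of 21524 genes were under 0.05. The difference at Morc1 was -0.0042 over the gene body, and from -0.11 to 0.13 when 1 profile was left out. The mean score over the region differed by -0.20 (exact permutation p = 0.667). It differed by -0.21 on one distribution, -2.24 points by percentile rank and -0.16 after centring by chromosome (exact permutation p = 0.333 for each). Leaving out 1 profile gave -0.44 to 0.030 for the region mean, -0.18 to 0.0070 for the peak score and -0.39 to 15.9 kb for the width. It gave -9.27 to 8.55 kb for the distal edge and -0.69 to 0.45 for the members against Nanog. The distal shift was 0.42 kb with profiles centred by chromosome and 4.33 kb with edges at 0.5 of the height. Positions with both dTAG profiles above both controls (76) numbered 0 on one distribution, by percentile rank and at gaps of 0.25 or 0.5, 12 after centring by chromosome, and 118 to 231 when 1 profile was left out. Those below (164) numbered 266 on one distribution and by rank, 53 at a gap of 0.25, 0 at 0.5, and 184 to 516 when 1 profile was left out. By their definition such counts can only stay or rise when a profile is left out, and only stay or fall when a gap is required. A lone profile was assumed to vary like the other group. The causes of the other changes were not tested. The 2 profiles per group, their mirrored scales and the unknown depth limit the precision, and no interval can be drawn from counts.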

Other observations

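Nectin3 and Cd96 lie beyond the proximal end of the region and were not among the genes fixed in the plan. Nectin3 (chr16:46387665-46498535), which encodes a cell adhesion protein, scored -0.67 in control 1, -1.16 in control 2, -1.88 in dTAG 1 and -1.76 in dTAG 2. Both dTAG profiles lay below both controls, with a difference of -0.90 (SE 0.35, limma unadjusted p = 0.047, adjusted p = 0.9999) and of -1.21 and -0.59 within the replicate numbers. Over all genes, 8.42% had both dTAG profiles below both controls. With trended and robust variance and the replicate block the limma adjusted p of Nectin3 was 0.046, in a fit that called 562 of 21524 genes. With the replicate block alone it was 0.574. Cd96, which encodes a receptor of lymphocytes and lies next to Nectin3, had a difference of -0.53, with -0.52 and -0.55 within the numbers and overlapping groups.

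The slopes at the borders followed the replicate number. The rise into the early interval was 1.38 score units per 100 kb in control 1, 1.74 in control 2, 1.41 in dTAG 1 and 1.96 in dTAG 2, and the fall out of it was -1.40, -2.04, -1.38 and -2.05. The lowest score of the proximal flank was -4.02, -4.71, -4.08 and -4.74 in the same order. These minima come from different places. Those of control 1 and dTAG 1 were at the first position of the region, where control 2 scored -4.59 and dTAG 2 -3.39. Those of control 2 and dTAG 2 were at 47630000 and 47620000. Profiles with the same number were closer to each other than profiles of the same group in all 3 measures.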
